A study of Mus musculus with 16 samples.

Results

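The effect of itaconate on lipid-loaded primary mouse hepatocytes was measured by comparing, across all genes, the 4 libraries of hepatocytes given lipid + itaconate with the 4 libraries given lipid alone. Membership followed from the treatment named in the sample labels, so 8 of the 16 libraries of the series enter the comparison directly. The other 8 libraries, from untreated cells and from cells given itaconate without lipid, share the estimate of the spread between replicates. Each treatment holds 1 library of every replicate letter, A to D, and the comparison was made within letters. All hepatocytes were labelled wild type, and the study's mice were described as adult male C57BL/6J animals. Cells were cultured overnight in DMEM with fetal bovine serum and insulin-transferrin-selenium, which all groups received. The lipid group received a chemically defined mixture of cholesterol and saturated and unsaturated fatty acids, diluted 10-fold. The lipid + itaconate group received the same mixture together with 10 mM sodium itaconate. The labels do not say whether a letter is a mouse, a cell isolation or a day, so p values measure the spread between these libraries, part of which may be technical. A control for the sodium or the osmotic load of the itaconate salt is not named in the sources used here.

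Itaconate is a dicarboxylate made from cis-aconitate by ACOD1, an enzyme that activated macrophages induce, and it is known to inhibit succinate dehydrogenase and to modify cysteines of proteins such as KEAP1, the inhibitor of the transcription factor NRF2. In the interferon response, transcription factors bind interferon-stimulated response elements and switch on antiviral genes. The paper cites opposing effects on immune modulation of itaconate derivatives and of unmodified itaconate, the form these cells received. A dampening of the interferon response is therefore not assumed for the form used here. Hepatocytes take up fatty acids and either oxidise them, store them as triglyceride or export them in lipoproteins, while the factors SREBP-1c and ChREBP switch on fatty acid synthesis from sugar.

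The 8 libraries held 23562859 to 28558693 expected counts with lipid and 25812579 to 35378517 with lipid + itaconate. The 20 hepatocyte markers fitted the label, with summed levels of 66779 to 83595 CPM (counts scaled to a common library size) with lipid and 63223 to 85450 CPM with lipid + itaconate, and the 11 lymphocyte markers, of which 5 and 4 were at 0 in all libraries of the group, summed to at most 0.452 CPM. The libraries of a group were not equally alike. Among lipid-treated libraries, letters A and B (13.9 times counting noise, as chi-square per gene) and letters C and D (10.0 times) resembled each other more than any other pair did (24.9 to 41.8 times). Among lipid + itaconate libraries, C and D were again the closest pair (14.5 times), and the 3 pairs with replicate B were the farthest apart (106 to 147 times). Results are therefore given letter by letter wherever the letters differed.

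In lipid-loaded hepatocytes, itaconate lowered a core of antiviral genes, among them *Rsad2*, *Ifit1*, *Ifit3* and *Isg15*, together with the glucose-responsive gene *Arrdc4*, the secreted growth factor *Tgfb2* and the epithelial genes *Sfn* and *Cldn4*. It raised the secreted ErbB ligand *Nrg4*, the chemokine *Cxcl1*, the cytokine-signalling inhibitor *Socs3* and the glutathione transferase *Gsta4*. Of 11675 genes tested, 301 passed an adjusted p of 0.05 in edgeR's quasi-likelihood test with Benjamini-Hochberg adjustment (2.58%), 154 of them higher (1.32%) and 147 lower (1.26%) with itaconate. The changes were small. The median absolute log2 fold change was 0.32 over the called genes and 0.08 over all genes tested, and 54 called genes changed at least 1.5-fold, 16 up and 38 down. At an unadjusted p under 0.05 the count was 2025 genes (17.3%). Called genes moved in 1 direction in all 4 letters in 291 of 301 cases, against 21.2% of all genes tested. Of the called genes, 166 did not overlap between the 4 and 4 libraries, against 5.82% of all genes tested. The same libraries and letters were used to call these genes, so neither value is separate evidence for the calls. In these bulk libraries, fewer cells of a type and less RNA per cell cannot be told apart.

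The number of calls depended on single libraries. It was 141, 191, 148 and 87 without lipid replicate A, B, C or D, and 59, 136, 891 and 156 without lipid + itaconate replicate A, B, C or D, highest without lipid + itaconate replicate C. The count of genes changed at least 1.5-fold was 18 without lipid + itaconate replicate A, 30 without B and 120 without C, and 33 and 26 without lipid replicates C and D. Calls that held in the fit of all libraries and in each of these 8 leave-one-out fits numbered 46 (0.394% of genes tested), 21 higher and 25 lower. The genes described first are drawn from these. Of the 69 called genes chosen by rule, 24, 18, 28 and 33 lost their call without lipid replicate A, B, C or D, and 35, 25, 0 and 25 without lipid + itaconate replicate A, B, C or D. The spread was estimated over all 16 libraries. A fit of the 8 lipid and lipid + itaconate libraries alone, with the letter as a block, called 14 genes, all among the 301. Of the 69 genes, 58 lost their call in it. Of the genes described first, *Rsad2*, *Ifit3*, *Arrdc4*, *Nrg4* and *Gsta4* kept their call in this edgeR fit. *Ifit1* (adjusted p = 0.0971), *Tgfb2* (0.124), *Sfn* (0.0737), *Cldn4* (0.124), *Cxcl1* (0.124) and *Socs3* (0.203) lost it. *Isg15* was not among the 69 genes, and its value in this fit is not given here.

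**Figure D1:**
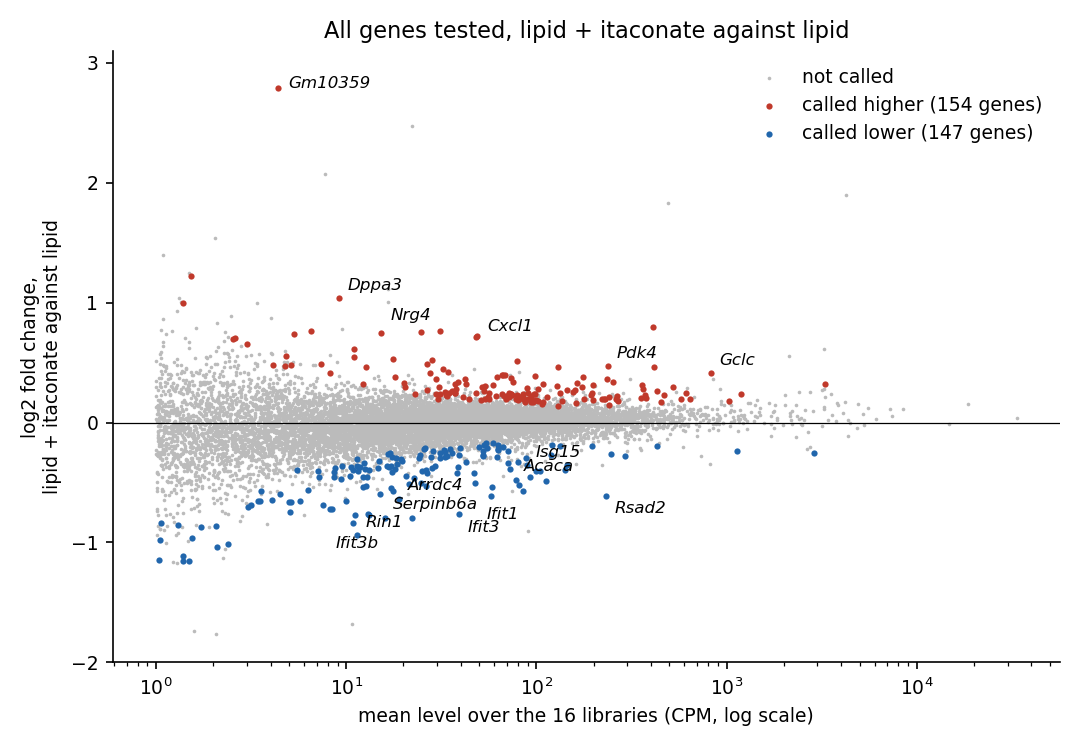
Each point is 1 of 11675 genes, with its mean level over the 16 libraries (CPM, log scale) on the horizontal axis and its log2 fold change between lipid + itaconate and lipid on the vertical axis. The 154 genes called higher (red) and 147 called lower (blue) lie mostly within 1 log2 unit of 0, and *Gm10359*, at 2.79, is the largest called rise.

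Among the rises, *Nrg4* (chr9:55220222-55326844, minus strand, GRCm38), which encodes neuregulin 4, a ligand of the ErbB4 receptor, rose evenly across letters. Its level was 19.5, 25, 13.5 and 12.7 CPM in the lipid-treated libraries A to D and 33.8, 43.5, 23.1 and 20.6 CPM in the lipid + itaconate libraries. The groups overlapped in level, since letters A and B were higher than C and D in both, but the rise within a letter was between 0.70 and 0.80 on the log2 scale in all 4. The fit gave a log2 fold change of 0.77 ± 0.07 (fitted value ± standard error here and in what follows, adjusted p = 6.77e-05), against 0.31 (adjusted p = 0.0180) without lipid. *Etfbkmt*, a lysine methyltransferase that acts on the electron transfer flavoprotein of mitochondrial fatty acid oxidation, rose from 17.9, 28, 24 and 23.9 CPM to 25.8, 46.6, 43.7 and 40.3 CPM (log2 fold change 0.72 ± 0.08, adjusted p = 0.000176). Only letter A, the lowest in both groups, made the groups overlap.

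*Dppa3*, a maternal factor best known from oocytes and early embryos, rose most of the genes averaging 5 CPM or more that were called in all 8 leave-one-out fits. It was at 4.92, 5.87, 6.04 and 3.75 CPM with lipid and 14.5, 12.8, 10.8 and 5.70 CPM with lipid + itaconate, so that the log2 fold change was 1.04 ± 0.15 (adjusted p = 0.00244). Letter D was lowest in both groups and had the smallest rise. *Olfml2b*, a secreted olfactomedin-domain protein, went from 9.87, 16.1, 19.7 and 18.5 CPM to 24.8, 33.2, 25.2 and 22.8 CPM without overlap (log2 fold change 0.76 ± 0.13, adjusted p = 0.00967). Its rise was 1.32 and 1.04 on the log2 scale in letters A and B and 0.35 and 0.30 in C and D.

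The other rises called in all 8 leave-one-out fits were smaller and of mixed function. *Stmn1*, which destabilises microtubules, had a log2 fold change of 0.55, *Agfg2*, an Arf GTPase-activating protein relative, 0.52, and *Chaf1b*, a subunit of chromatin assembly factor 1, 0.46. *Stard13* was at 19.6 to 21.2 CPM with lipid and 26.6 to 28.7 CPM with lipid + itaconate, with no overlap and a log2 fold change of 0.45 ± 0.06. *Susd1* (0.42), *Ap3s1*, a subunit of the adaptor complex AP-3 (0.40), *Gas2*, a cytoskeletal linker (0.40), and *Mocs2*, a subunit of molybdopterin synthase (0.39), did not overlap between groups either. Their adjusted p values in the edgeR test lay between 0.000716 and 0.0110.

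**Figure D2:**
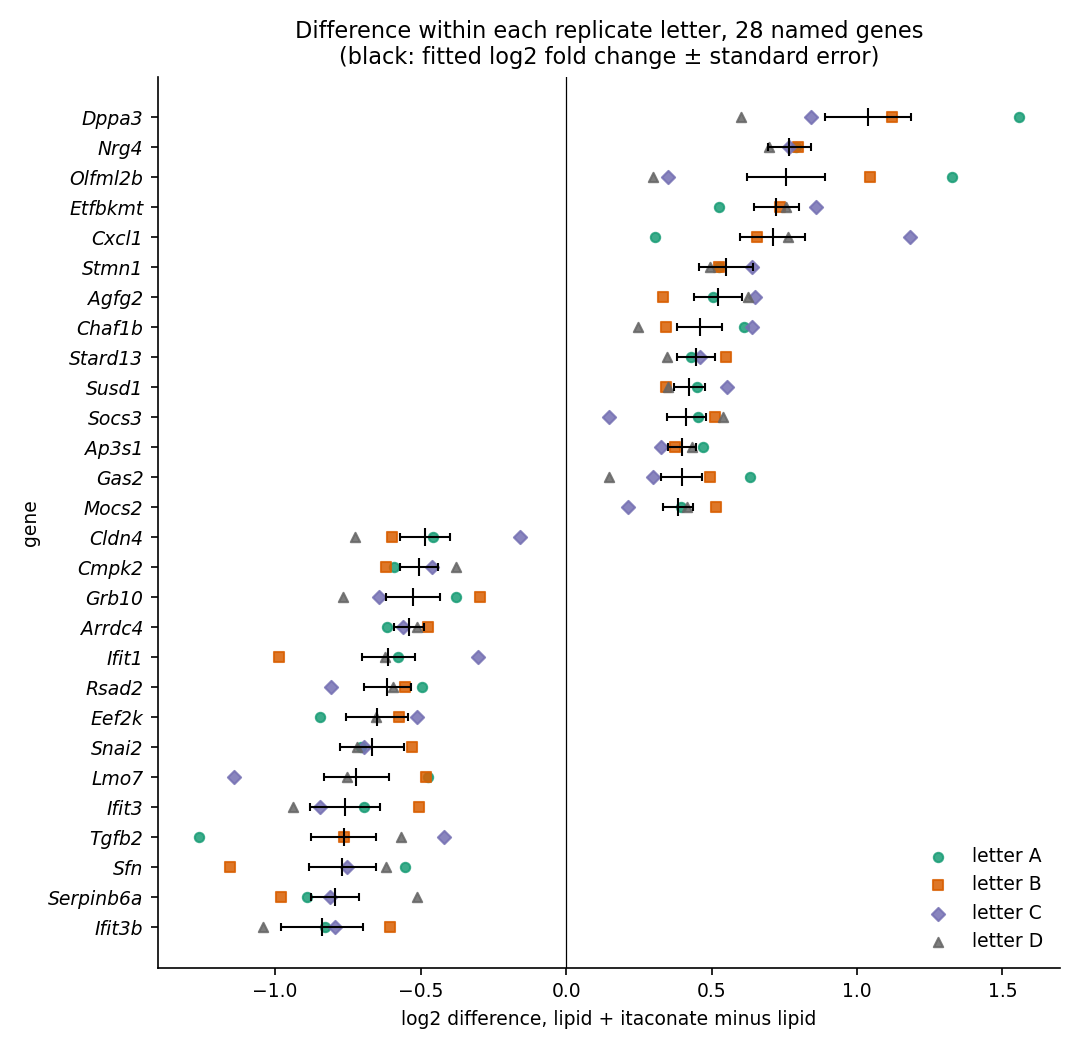
For the 14 largest rises and 14 largest falls that were called in every leave-one-out fit, symbols give the log2 difference between the lipid + itaconate and the lipid library of each letter, and black bars the fitted log2 fold change ± standard error. All 112 symbols lie on the side of their gene's fitted value, from 1.56 for *Dppa3* in letter A to −1.26 for *Tgfb2* in letter A. The genes were also chosen to move in the same direction in every letter. The shared side therefore follows from that choice and is not separate evidence.

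Of the genes averaging 5 CPM or more that were called in all 8 leave-one-out fits, the largest fall outside the interferon response was that of *Serpinb6a* (chr13:33917918-34002794, minus strand), an intracellular inhibitor of serine proteases. It was at 34.0, 27.5, 24.6 and 28.7 CPM with lipid and 18.3, 13.9, 14.0 and 20.1 CPM with lipid + itaconate, with no overlap (log2 fold change −0.79 ± 0.08, adjusted p = 0.000147). Its mean was 10.8 ± 0.602 CPM (SD, n = 4) in untreated hepatocytes, below all 8 libraries with lipid. The family holds near-identical copies among which reads may be shared, and *Serpinb6b* had a log2 fold change of −0.65 (adjusted p = 0.0221) at 1.8 to 4.63 CPM.

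*Sfn*, which encodes 14-3-3 sigma, an epithelial checkpoint protein, was at 21.6, 29.9, 21.0 and 23.5 CPM with lipid and 14.7, 13.4, 12.5 and 15.3 CPM with lipid + itaconate (log2 fold change −0.77 ± 0.12, adjusted p = 0.00314). *Tgfb2*, a ligand of the TGF-beta receptors, went from 28.4, 15.1, 14.3 and 16.9 CPM to 11.8, 8.90, 10.7 and 11.4 CPM (log2 fold change −0.76 ± 0.11, adjusted p = 0.00288), with its highest level and its largest fall in letter A. Neither gene overlapped between groups. Without lipid, itaconate left *Tgfb2* at a log2 fold change of −0.12 (adjusted p = 0.587), and the difference between the effects, −0.65, had an unadjusted interaction p of 0.000952 and an adjusted p of 0.257.

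*Snai2*, a repressor of epithelial genes that TGF-beta is known to induce, fell by 0.67 on the log2 scale (adjusted p = 0.00649), with 4.06 to 7.80 CPM with lipid and 2.81 to 4.78 CPM with lipid + itaconate. *Eef2k*, the kinase that inactivates elongation factor 2, was at 7.5 to 9.99 CPM with lipid and 5.06 to 5.70 CPM with lipid + itaconate, without overlap (log2 fold change −0.65, adjusted p = 0.00527). *Lmo7*, a LIM-domain protein of cell junctions, fell by 0.72, *Grb10*, an adaptor that restrains insulin receptor signalling, by 0.53, and *Cldn4*, a tight junction claudin, by 0.48, each without overlap between groups.

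Of the gene lists, the interferon-stimulated genes held the most falls. Of 54 interferon-stimulated genes listed 52 were tested, and 13 were called lower and 1 higher, where 1.26% and 1.32% of all genes tested were, and the median log2 fold change was −0.17, against −0.00 over all genes tested. Those called lower included *Ifit1*, *Ifit2*, *Ifit3*, *Ifit3b*, *Isg15*, *Usp18*, *Oasl1*, *Rsad2*, *Cmpk2*, *Xaf1*, *Gbp2* and *Gbp3*, and 8 of the 14 calls held in all 8 leave-one-out fits. The count of calls was 8 without lipid + itaconate replicate A, 8 without lipid replicate D and 25 without lipid + itaconate replicate C. Without lipid, itaconate called 41 of the same 52 genes lower and 0 higher, with a median of −0.59, where 4.91% of all genes tested were called, 2.95% lower and 1.96% higher.

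*Rsad2* (chr12:26442746-26456452, minus strand, GRCm38, GENCODE vM21) encodes viperin, a radical enzyme that makes a chain-terminating nucleotide. It was at 199.9, 166, 228 and 302 CPM in the lipid-treated libraries A to D and at 142, 113, 129.9 and 199.9 CPM with lipid + itaconate. Every letter fell, by 0.50 to 0.81 on the log2 scale, although the groups overlapped because letter D was highest in both (log2 fold change −0.61 ± 0.08, adjusted p = 0.00117). Its neighbour *Cmpk2* (chr12:26469204-26479837, plus strand), a mitochondrial nucleotide kinase, went from 31.8, 21.4, 31.9 and 40.4 CPM to 21.1, 13.9, 23.2 and 31.1 CPM (log2 fold change −0.51 ± 0.06, adjusted p = 0.000876).

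The Ifit genes encode tetratricopeptide proteins that bind foreign RNA. *Ifit1* (chr19:34640871-34650009, plus strand) went from 44.2, 31.4, 35.7 and 55.9 CPM to 29.6, 15.8, 29.0 and 36.3 CPM, so that the log2 fold change was −0.61 ± 0.09 (adjusted p = 0.00290). *Ifit3* went from 24.7, 16.8, 24.5 and 33.5 CPM to 15.3, 11.8, 13.6 and 17.5 CPM (log2 fold change −0.76 ± 0.12, adjusted p = 0.00435). *Ifit3b* had a log2 fold change of −0.84 ± 0.14 (adjusted p = 0.00712), with no overlap between groups. *Ifit3* and *Ifit3b* are close copies that share reads, so how their expected counts divide between them is uncertain.

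*Isg15*, a ubiquitin-like modifier, and *Usp18*, the protease that removes it from proteins, fell together. *Isg15* was at 73.1, 58.4, 69.6 and 101 CPM with lipid and 53.9, 44.9, 54.7 and 84.0 CPM with lipid + itaconate (log2 fold change −0.36 ± 0.06, adjusted p = 0.00527), and *Usp18* had a log2 fold change of −0.39 (adjusted p = 0.00290). *Oasl1*, which restrains translation of the regulator IRF7, had a log2 fold change of −0.45 (adjusted p = 0.000176). The 1 member called higher was *Iigp1*, an interferon-inducible GTPase. It was at 358 to 425 CPM with lipid and 466 to 492 CPM with lipid + itaconate (log2 fold change 0.30, adjusted p = 0.0441), and was called in 3 of the 8 leave-one-out fits.

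The promoters of 4 interferon-stimulated genes that were called in all 8 leave-one-out fits are shown because a search chosen after these values were seen found a recurring motif there. Sequences are from RefSeq on GRCm38.p6, written 5′ to 3′ on the gene's own strand, and capitals mark matches to the core of the interferon-stimulated response element, TTTC and TTTC with any 2 bases between them, or the reverse complement, GAAA and GAAA with 2 bases between them. The stretches are *Ifit3* at chr19:34583354-34583433 (plus strand), *Ifit1* at chr19:34640759-34640838 (plus strand), *Rsad2* at chr12:26456529-26456608 (minus strand) and *Isg15* at chr4:156200847-156200926 (minus strand), where the capitals hold 3 overlapping matches.
Ifit3: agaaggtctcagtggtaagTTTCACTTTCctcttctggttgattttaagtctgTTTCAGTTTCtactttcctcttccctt
Ifit1: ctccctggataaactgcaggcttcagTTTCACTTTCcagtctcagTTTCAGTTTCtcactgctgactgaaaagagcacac
Rsad2: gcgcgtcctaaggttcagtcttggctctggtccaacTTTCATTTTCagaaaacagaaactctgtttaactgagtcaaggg
Isg15: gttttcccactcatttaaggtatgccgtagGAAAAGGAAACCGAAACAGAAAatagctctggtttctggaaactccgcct

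Of the 13 interferon-stimulated genes called lower, 11 had a promoter in the table and 7 of these (63.6%) held the motif in the 250 bases before the start, against 10 of 28 members that were not called (35.7%) and 3.1% of the 8991 tested genes with a promoter. Over the whole genome table, 2.98% of 32851 promoter windows held it. Among all genes called lower it was found in 15 of 109 (13.8%), and among those called higher in 2 of 110 (1.82%). *Serpinb6a* was one of the 15. *Ifit3* and *Ifit3b* were both among the 7, and the 80 bases around the motif are identical in these close copies, so the 7 are not all separate promoters. No match was found for *Cmpk2*, *Oasl1* or *Usp18*. A match says only that these letters occur in the window.

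The fall of the interferon-stimulated genes was not the same in every letter when lipid was present. In letters A and B, 48 and 49 of the 52 genes were lower with lipid + itaconate than with lipid, with medians of −0.37 and −0.42 on the log2 scale. In letter D 35 were lower (median −0.05), and in letter C 17 were lower and 35 higher (median 0.12). Without lipid, 50 to 52 of the 52 genes were lower with itaconate in each letter, with medians from −0.52 to −0.61.

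*Irf7*, the factor that amplifies the response, was not called. It was at 46.5, 42.1, 37.1 and 58.8 CPM with lipid and 33, 30.4, 41.3 and 51.6 CPM with lipid + itaconate, lower in A, B and D and higher in C (log2 fold change −0.24, adjusted p = 0.197). *Ifit1*, *Ifit3*, *Ifit3b*, *Rsad2*, *Isg15*, *Usp18*, *Oasl1* and *Cmpk2* were lower in all 4 letters.

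**Figure D3:**
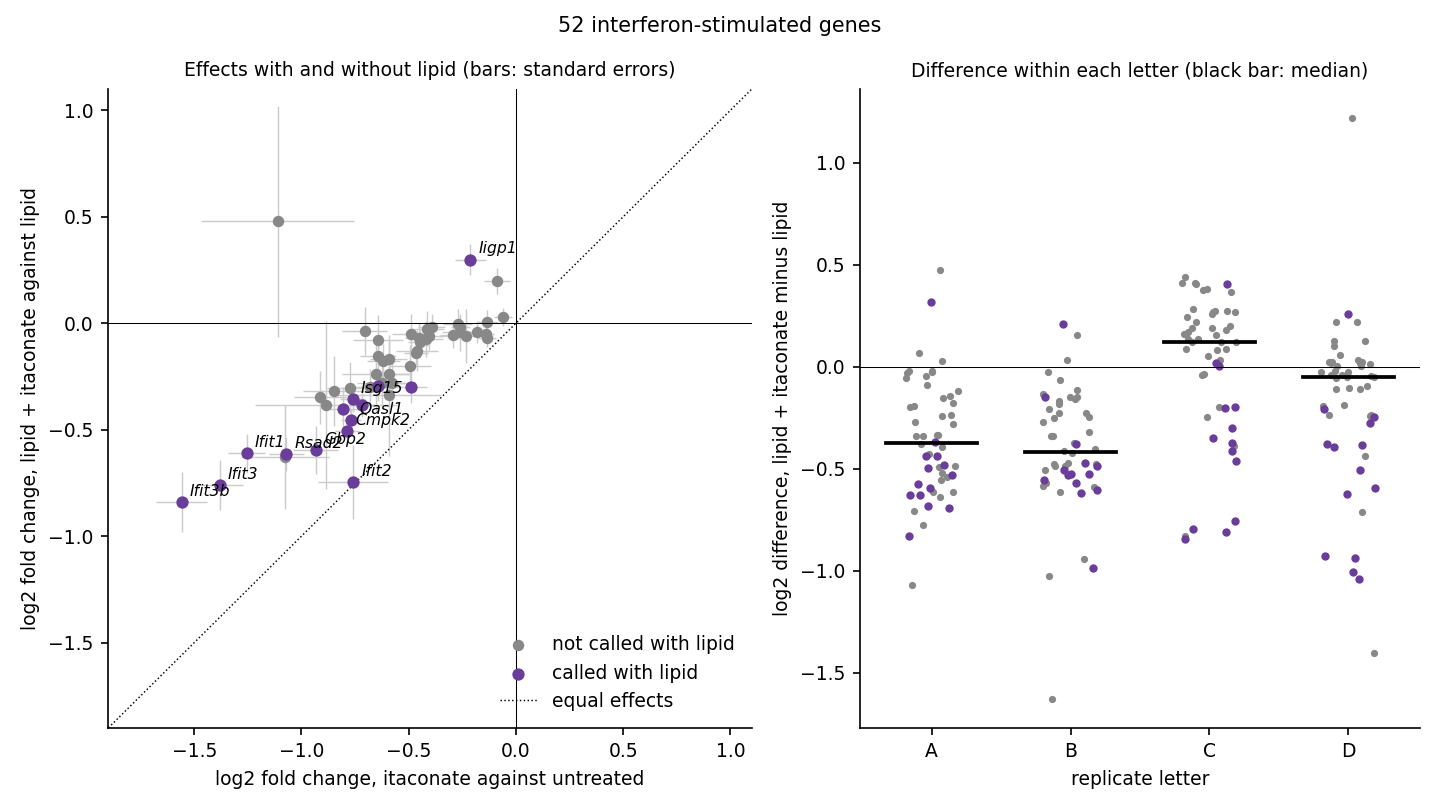
Left, the log2 fold change of 52 interferon-stimulated genes with itaconate alone (horizontal) and with itaconate on top of lipid (vertical), with standard errors and a dotted line for equal effects. Right, the log2 difference of the same genes within each letter with lipid present, with the median as a black bar at −0.37, −0.42, 0.12 and −0.05 for A to D.

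Whether the effect of itaconate differs between lipid-loaded and lipid-free hepatocytes was tested as an interaction. The effects being compared share no libraries. In edgeR's test 1 gene was called over all genes (0.00857%), and 1004 genes (8.60%) had an unadjusted p under 0.05. The gene was *Cxcl10*, an interferon-induced chemokine that attracts T cells and was counted with the NF-kB targets. It was at 65.2, 53.2, 58.0 and 74.6 CPM with lipid and 69.4, 54.2, 63.1 and 73.2 CPM with lipid + itaconate, so the groups overlapped almost entirely (log2 fold change 0.05, adjusted p = 0.597). Without lipid it went from 158 ± 17.7 CPM to 118 ± 10.7 CPM (SD, n = 4, log2 fold change −0.41, adjusted p = 0.000117). The interaction difference was 0.47 ± 0.07 (adjusted p = 0.0299). The call held in 4 of 16 leave-one-out fits, those without replicate B of the itaconate, lipid or lipid + itaconate group or without lipid replicate D. Without each of the other 12 libraries it was lost, at adjusted p values from 0.0520 to 0.170.

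None of the 52 interferon-stimulated genes passed the adjusted interaction test in edgeR, although 36 had an unadjusted interaction p under 0.05 and 13 were called by DESeq2, all 13 with a smaller fall in the presence of lipid. *Ifit1* had an interaction difference of 0.64 (unadjusted p = 9.27e-05, adjusted p = 0.158). *Ifit1* averaged 114 ± 39.0 CPM (SD, n = 4) in untreated hepatocytes and 46.9 ± 12.5 CPM with itaconate alone. The other genes among the 5 with the lowest interaction p were *Arrdc4* (difference −0.47, adjusted p = 0.0521), *Trex1*, an exonuclease that clears cytosolic DNA (0.43, adjusted p = 0.158), and *Pml*, the organiser of nuclear bodies (0.41, adjusted p = 0.158). For *Arrdc4* the larger effect was the one with lipid, and for *Ifit1*, *Trex1* and *Pml* the one without.

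**Figure D4:**
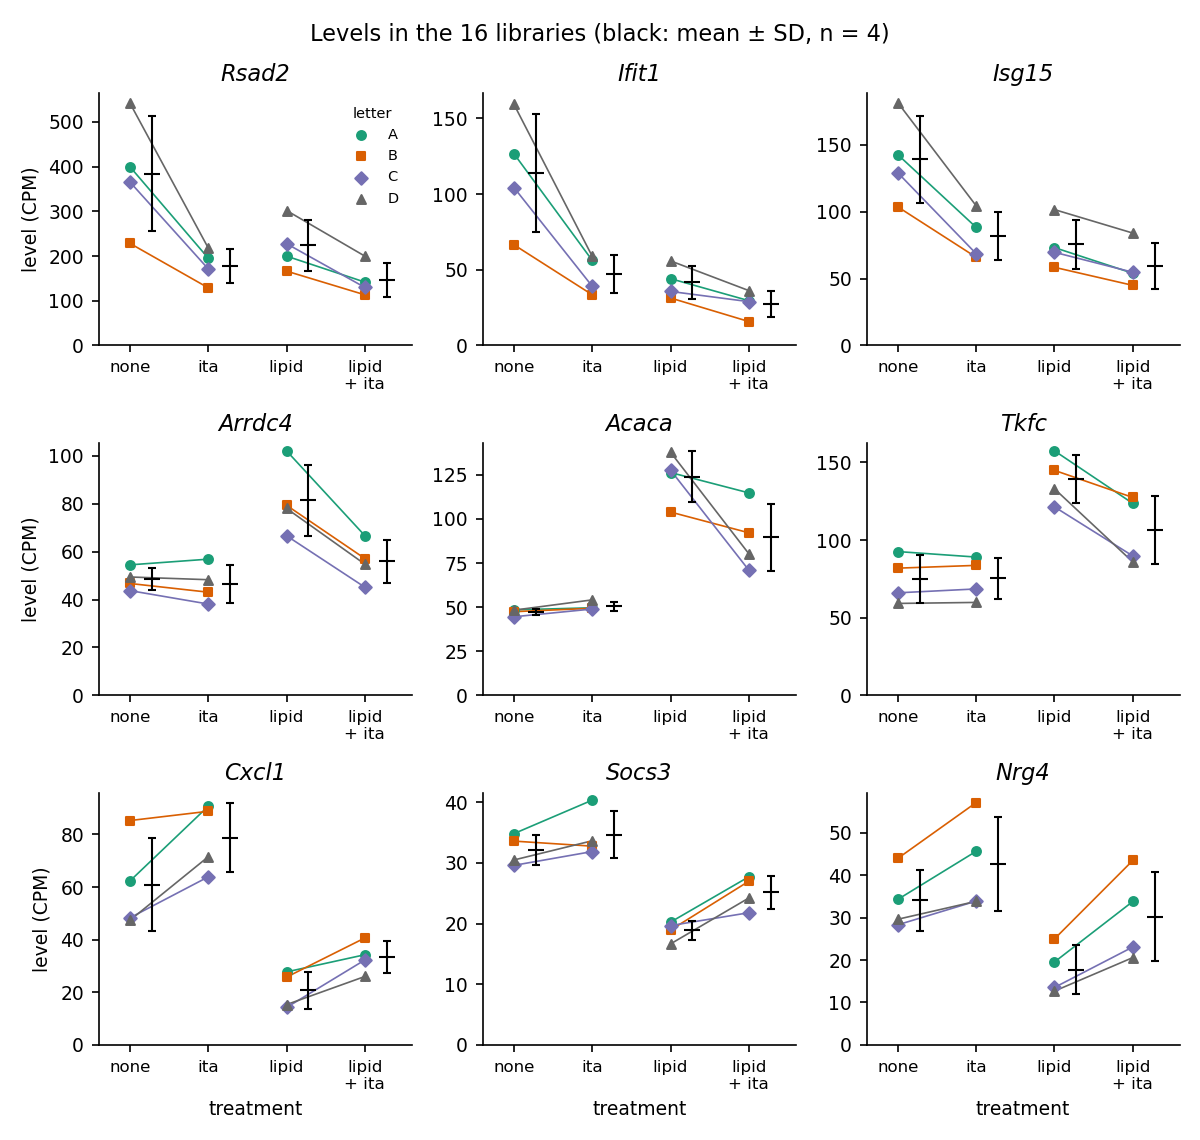
CPM of 9 genes in all 16 libraries, with lines joining the libraries of a letter that differ in itaconate and black bars giving mean ± SD (n = 4). *Arrdc4*, *Acaca* and *Tkfc* are lower with itaconate in every letter in the 2 right-hand groups, and *Cxcl1*, *Socs3* and *Nrg4* higher.

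The lipogenesis and desaturation list also held genes of sugar metabolism and alpha-arrestins. Of its 22 genes tested (23 listed), 5 were called lower and 0 higher by edgeR, where 1.26% and 1.32% of all genes tested were. The median log2 fold change was −0.12. DESeq2 called 7 lower and 0 higher, and 10 had an unadjusted p under 0.05 in edgeR. The edgeR calls included *Pklr*, the liver pyruvate kinase (−0.57, called in 2 of 8 leave-one-out fits), and *Arrdc4*, an alpha-arrestin that ChREBP is known to induce (−0.54). The others were *Acaca*, acetyl-CoA carboxylase (−0.48), *Tkfc*, the triokinase of fructose metabolism (−0.40), and *Acly*, ATP citrate lyase (−0.26, 3 of 8 fits). Of these 5 genes, only *Acaca* and *Acly* encode enzymes of fatty acid synthesis. Only *Arrdc4* and *Tkfc* were called in all 8 leave-one-out fits. The count of edgeR calls was 3 without lipid + itaconate replicate A and 2 without lipid + itaconate replicate D, lipid replicate C or lipid replicate D. The list had medians of −0.09, −0.09, −0.25 and −0.20 in letters A to D with lipid and −0.01, −0.03, −0.09 and −0.02 without lipid, where 2 members were called lower. In the interaction test edgeR called 0 of the 22, with 5 at an unadjusted p under 0.05 and 3 called lower by DESeq2.

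*Arrdc4* shared the lowest adjusted p of the comparison with *Creb3l3* and *Nrg4*. Its level was 102, 79.4, 66.6 and 78.1 CPM with lipid and 66.7, 57.1, 45.1 and 54.8 CPM with lipid + itaconate, a fall of 0.47 to 0.61 in every letter (adjusted p = 6.77e-05). *Tkfc* went from 157, 145, 121 and 133 CPM to 124, 127, 89.8 and 85.9 CPM (adjusted p = 0.00398) and was likewise called in every leave-one-out fit. In untreated hepatocytes *Arrdc4* averaged 48.6 ± 4.57 CPM and *Tkfc* 74.9 ± 15.2 CPM (SD, n = 4).

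*Acaca* differed by letter. It went from 126, 104, 128 and 138 CPM to 115, 92.2, 71.0 and 80.3 CPM, so that letters A and B fell by 0.14 and 0.17 on the log2 scale and letters C and D by 0.85 and 0.78. Its log2 fold change was −0.48 ± 0.10, and its adjusted p of 0.0221 became 0.0678 without lipid replicate C, 0.0896 without lipid replicate D and 0.0757 without lipid + itaconate replicate D. *Txnip*, an alpha-arrestin that binds thioredoxin, showed the same split at 154, 113, 144 and 145 CPM with lipid against 144, 118, 60.7 and 71.2 CPM with lipid + itaconate, and was not called (log2 fold change −0.57, adjusted p = 0.0606).

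Other central lipogenic genes moved less. *Fasn*, fatty acid synthase, had a log2 fold change of −0.13 (adjusted p = 0.132), *Scd1*, the main hepatic desaturase, −0.11 (adjusted p = 0.467), *Srebf1*, which encodes SREBP-1c, 0.05 (adjusted p = 0.743), and *Mlxipl*, which encodes ChREBP, −0.10 (adjusted p = 0.610). The promoter of *Arrdc4* is shown because it is the 1 of the 5 called genes with a full E-box, CACGTG, in the 250 bases before its start, at chr7:68749390-68749469 on the minus strand (RefSeq, GRCm38.p6, E-box in capitals). The E-box reads the same on both strands, and 10.1% of tested genes with a promoter held one, as did 4 of 13 members of the list that were not called (30.8%).
Arrdc4: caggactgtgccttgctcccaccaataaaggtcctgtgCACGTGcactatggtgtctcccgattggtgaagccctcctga

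*Creb3l3*, a liver transcription factor of triglyceride metabolism that PPAR alpha controls, was at 215, 243, 211 and 191 CPM with lipid and 167, 179.9, 159 and 146 CPM with lipid + itaconate, with no overlap (log2 fold change −0.40 ± 0.04, adjusted p = 6.77e-05). Among the 27 genes of peroxisomal oxidation and PPAR alpha tested it was the only called fall in edgeR. *Pdk4*, the kinase that shuts pyruvate dehydrogenase, and *Pex11a*, a factor of peroxisome division, were the 2 called rises. The called share of the list was 11.1%, against 2.58% of all genes tested. *Pdk4* rose from 98.5, 138, 133 and 117 CPM to 158, 210.2, 153 and 148 CPM (log2 fold change 0.47, adjusted p = 0.0122), and had an adjusted p of 0.0569 without lipid + itaconate replicate A. *Pex11a* had a log2 fold change of 0.29 and was called in 2 of 8 leave-one-out fits.

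No change was called among 22 genes of mitochondrial fatty acid oxidation and ketogenesis, 27 of triglyceride synthesis and lipid droplets and 22 of apolipoproteins and lipoprotein assembly in edgeR's test, with 1, 5 and 3 genes at an unadjusted p under 0.05 and 0, 0 and 1 called by DESeq2. Their median log2 fold changes were 0.01, 0.04 and 0.02. *Plin2*, the lipid droplet coat protein, had a log2 fold change of 0.16 (adjusted p = 0.339), and *Cpt1a*, the entry step of mitochondrial oxidation, −0.01 (adjusted p = 0.987).

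In the glycolysis and gluconeogenesis list, *Hk2* and *Pklr* were the 2 edgeR calls of 31 genes (6.45%, against 2.58% of all genes tested). Both were lower, and DESeq2 called 2 lower and 1 higher. *Hk2*, a hexokinase that adult hepatocytes hardly use, went from 11.5, 14.2, 19.9 and 19.9 CPM to 7.40, 9.24, 9.25 and 12.5 CPM (log2 fold change −0.77, adjusted p = 0.0122). The call was lost without lipid + itaconate replicate A (adjusted p = 0.0584) and without lipid replicate D (0.0554). The list as a whole went in opposite directions in different letters, with medians of 0.24 and 0.23 in A and B and −0.30 and −0.15 in C and D.

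The same split ran through several hepatocyte programmes. The 36 genes of the urea cycle and amino acid catabolism had medians of 0.23, 0.32, −0.40 and −0.05 in letters A to D, the 25 hypoxia genes 0.33, 0.33, −0.36 and −0.05, and the 20 hepatocyte markers 0.21, 0.29, −0.22 and 0.02. Without lipid, the medians of the urea cycle list lay between 0.07 and 0.18 in all 4 letters. The part of these shifts in the results given here was not tested beyond the fits without single libraries. Few members of these lists were called by edgeR, 5.56% of the urea cycle list, 8.0% of the hypoxia list and 5.0% of the hepatocyte markers, against 2.58% of all genes tested. *Tdo2*, tryptophan dioxygenase, was higher (log2 fold change 0.31, adjusted p = 0.0135, but 0.0742 without lipid + itaconate replicate A and 0.0501 without lipid replicate D), *Glul*, glutamine synthetase, lower (−0.41, adjusted p = 0.0352, 3 of 8 leave-one-out fits), and *Ndrg1* higher (0.31, adjusted p = 0.0329, 2 of 8 fits).

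Of 25 NF-kB targets and chemokines tested (31 listed), 6 were called higher and 0 lower by edgeR, where 1.32% and 1.26% of all genes tested were, and the median log2 fold change was 0.15. DESeq2 called 7 higher and 0 lower, and 9 had an unadjusted p under 0.05 in edgeR. They were *Cxcl1* (0.71), *Socs3* (0.41), *Nfkbiz*, an atypical inhibitor that acts in the nucleus (0.36), *Tnfaip3*, the deubiquitinase A20 (0.32), *Sod2*, mitochondrial superoxide dismutase (0.22), and *Nfkbia*, the inhibitor I kappa B alpha (0.19). The calls of *Cxcl1*, *Socs3* and *Sod2* held in all 8 leave-one-out fits, and the count was 3 without lipid + itaconate replicate A or B. By letter the list's medians were −0.03, 0.13, 0.30 and 0.10.

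*Cxcl1*, a neutrophil-attracting chemokine, was at 27.7, 25.8, 14.2 and 15.3 CPM with lipid and 34.3, 40.6, 32.3 and 26.0 CPM with lipid + itaconate. It rose in all 4 letters, most in C, and the groups overlapped only because letter A with lipid lay above letter D with lipid + itaconate (log2 fold change 0.71 ± 0.11, adjusted p = 0.00431). *Socs3*, which is induced by STAT3 and blocks JAK kinases, went from 20.2, 18.9, 19.7 and 16.6 CPM to 27.7, 27.0, 21.8 and 24.2 CPM without overlap (adjusted p = 0.00501). In untreated hepatocytes these genes averaged 60.8 ± 17.7 and 32.1 ± 2.48 CPM (SD, n = 4), above every lipid-treated library. The levels of untreated cells are given for reference only, because a comparison of lipid with untreated hepatocytes would use the same lipid libraries.

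The *Cxcl1* promoter is shown as the called gene with matches to both orientations of the kappa B core searched, GGG and TTTCC with any 2 bases between them and the reverse complement, GGAAA and CCC with 2 bases between them, at chr5:90891129-90891208 on the plus strand (RefSeq, GRCm38.p6, matches in capitals). Of the 6 called genes 5 had a promoter in the table and 3 of these (60%) held the motif, against 3 of 12 members not called (25%) and 1.78% of tested genes with a promoter. The other 2 were *Tnfaip3* and *Nfkbia*.
Cxcl1: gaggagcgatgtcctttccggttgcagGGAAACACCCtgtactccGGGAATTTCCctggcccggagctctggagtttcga

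Acute phase genes, which IL-6 and IL-1 drive in hepatocytes, gave 2 higher edgeR calls and 1 lower of 28 (10.7%, against 2.58% of all genes tested). DESeq2 called 3 higher and 1 lower. At an unadjusted p under 0.05 the edgeR count was 11, where 17.3% of all genes tested passed. *Steap4*, a metalloreductase, had a log2 fold change of 0.46 (adjusted p = 0.0264, 4 of 8 leave-one-out fits), *Apcs*, serum amyloid P, 0.31 (adjusted p = 0.0269, 3 of 8), and *Itih3* −0.20 (adjusted p = 0.0435, 2 of 8).

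Of 40 NRF2 targets, edgeR called 5 higher and 0 lower (1.32% and 1.26% of all genes tested were), and DESeq2 called 7 higher and 1 lower. At an unadjusted p under 0.05 the edgeR count was 17. The median log2 fold change was 0.07, with 29 members above 0 and 11 below, the lowest being *Nqo1*, a quinone reductase, at −0.23 (adjusted p = 0.257). *Gsta4*, a glutathione transferase that removes the lipid peroxidation product 4-hydroxynonenal, was at 199, 206, 200.5 and 199 CPM with lipid and 265, 256, 254 and 258 CPM with lipid + itaconate. All 4 lipid + itaconate libraries lay above all 4 lipid libraries (log2 fold change 0.36 ± 0.04, adjusted p = 0.000343, called in 8 of 8 leave-one-out fits). *Gclc*, the catalytic subunit of the rate-limiting enzyme of glutathione synthesis, went from 558, 655, 475 and 591 CPM to 752, 809.7, 717 and 746 CPM, also without overlap (log2 fold change 0.41, adjusted p = 0.0278, called in 3 of 8 fits, with an adjusted p of 0.112 without lipid + itaconate replicate A). The others were *Osgin1* (0.19), *Prdx1* (0.18) and *Gsr* (0.17). The count of 5 was 1 without lipid replicate A, C or D and without lipid + itaconate replicate A or B, 3 without lipid replicate B or lipid + itaconate replicate D, and 12 without lipid + itaconate replicate C.

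The integrated stress response, which ATF4 drives when amino acids are short or the endoplasmic reticulum is stressed, had a median of −0.13. Of its 32 genes, edgeR called 2 lower and 1 higher (9.38%, against 2.58% of all genes tested), and DESeq2 called 5 lower and 2 higher. At an unadjusted p under 0.05 the edgeR count was 14, where 17.3% of all genes tested passed. *Aldh1l2*, a mitochondrial folate enzyme, had a log2 fold change of −0.54 (adjusted p = 0.0306), *Asns*, asparagine synthetase, −0.37 (adjusted p = 0.0429), and *Slc38a2*, an amino acid carrier that osmotic stress also induces, 0.19 (adjusted p = 0.0193). The count of adjusted edgeR calls was 0 without lipid + itaconate replicate A or B or lipid replicate D, 1 without lipid replicate A or C or lipid + itaconate replicate D, and 14 without lipid + itaconate replicate C. Of 20 aminoacyl-tRNA synthetases 0 were called in edgeR's test, with 7 at an unadjusted p under 0.05 and 1 called by DESeq2 (median −0.07). Among 25 chaperones of the endoplasmic reticulum and 21 heat shock proteins 0 were called by either tool, with 2 in each list at an unadjusted p under 0.05. *Slc38a2* was also the 1 call of 13 osmotic stress genes (7.69%).

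Of 32 genes of the citric acid cycle and of itaconate handling, *Slc13a5*, the citrate carrier of the hepatocyte surface, was the 1 call (3.12%, against 2.58% of all genes tested), at 28.4 to 39.8 CPM with lipid and 22 to 29.6 CPM with lipid + itaconate (log2 fold change −0.42, adjusted p = 0.0379, called in 3 of 8 leave-one-out fits). The 13 protein-coding transcripts of the mitochondrial genome had the highest median of any list, 0.22. In edgeR's test 0 of them were called, with 5 at an unadjusted p under 0.05, and 3 were called higher by DESeq2. Their medians by letter were −0.05, 0.34, 0.35 and 0.09.

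**Figure D5:**
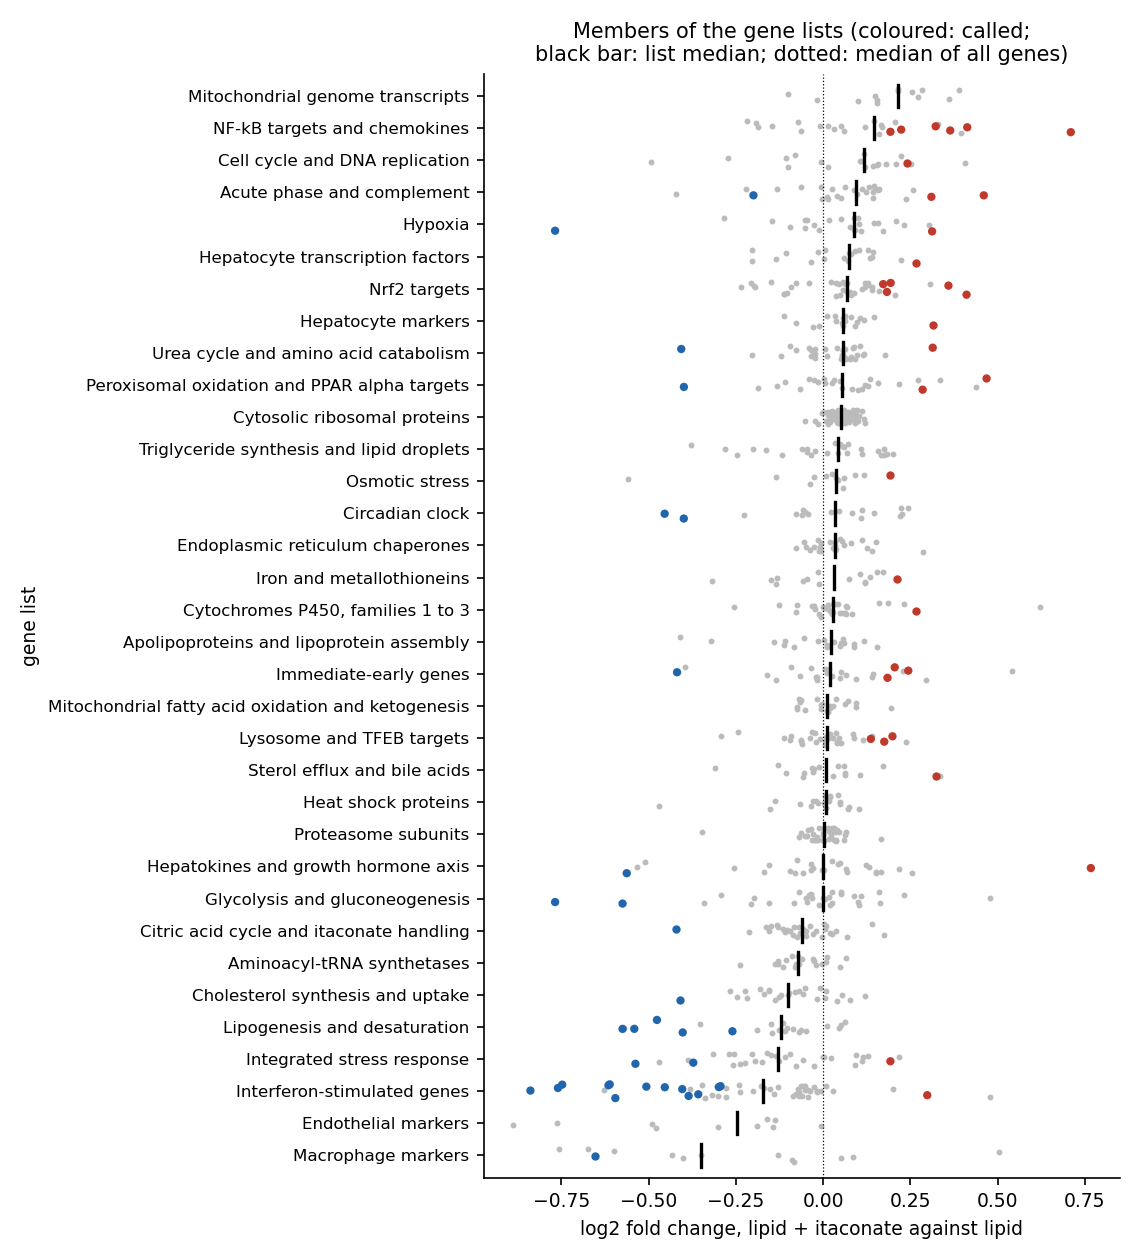
Log2 fold changes of the members of each gene list with at least 10 members tested, with called members in red (higher) or blue (lower), list medians as black bars and the median of all genes as a dotted line. Interferon-stimulated genes (median −0.17) and the lipogenesis and desaturation list (−0.12) hold the most blue points, 13 and 5. The latter list also holds genes of sugar metabolism and alpha-arrestins. NF-kB targets (0.15) and Nrf2 targets (0.07) hold the most red points, 6 and 5.

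Other cell types were present at low levels and moved partly with the treatment. The summed level of 20 macrophage markers was 255, 319, 365 and 341 CPM in the lipid-treated libraries A to D and 228, 256, 335 and 346 CPM with lipid + itaconate, most of it from *Cd68*, a lysosomal marker, and no member was at 0 in all libraries of a group. *Cd68* was at 207 to 299.6 CPM with lipid and 195 to 298 CPM with lipid + itaconate. Of 13 markers tested, *C1qb* was called by edgeR (7.69%, against 2.58% of all genes tested). It was at 2.64, 4.33, 3.32 and 2.67 CPM against 1.59, 2.81, 1.83 and 1.99 CPM (log2 fold change −0.65, adjusted p = 0.0279, called in 3 of 8 leave-one-out fits with adjusted p values up to 0.0834). Of the 13, 10 had a log2 fold change below 0 and 3 above, the highest being *Mmp12* at 0.51. The median of the 13 was −0.35, and by letter it was −0.43, −0.07, −0.60 and 0.04. *Csf1r*, the receptor that defines the lineage, was at 1.99 to 3.24 CPM with lipid and 1.31 to 1.58 CPM with lipid + itaconate (log2 fold change −0.76, adjusted p = 0.0568). The 10 endothelial markers tested had a median of −0.25, and the list summed to 42.4 to 57.4 CPM with lipid and 31.2 to 44.0 CPM with lipid + itaconate. In edgeR's test 0 endothelial markers were called, with 4 at an unadjusted p under 0.05 and 1 called by DESeq2. Cholangiocyte markers summed to 358 to 639 CPM and 379 to 652 CPM, and stellate cell markers to 25.3 to 29.2 CPM and 22.9 to 30.5 CPM, with 0 called in either list by either tool and 0 at an unadjusted p under 0.05. Macrophages and endothelial cells also express interferon-stimulated genes, and the part of these cells in the falls given above was not tested.

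Among regulators and housekeeping genes the calls were few. In the lists of this paragraph with a call, the share called by edgeR ran from 3.23% (cytochrome P450 list) to 15.4% (immediate-early genes). Over all genes tested it was 2.58%. Of 28 hepatokines and genes of the growth hormone axis *Nrg4* was higher and *Angptl6* lower (−0.56, adjusted p = 0.0428). Among the circadian genes *Per2* was lower (−0.45, adjusted p = 0.0220). Of 26 immediate-early genes *Dusp6* (0.24), *Junb* (0.21) and *Ier2* (0.18) were higher and *Klf10*, which TGF-beta induces, was lower (−0.42, adjusted p = 0.0245). Of 26 cholesterol genes *Hsd17b7* was lower (−0.41), and of 18 genes of sterol efflux and bile acids *Cyp8b1*, the sterol 12-alpha-hydroxylase, was higher (0.32). The lysosome list gave *Gla*, *Tfe3* and *Rragc* (0.20, 0.18 and 0.14), the cytochrome P450 list *Cyp2a5* (0.26), the hepatocyte factors *Ahr* (0.27), the cell cycle list *Mcm7* (0.24) and the iron list *Slc40a1*, the iron exporter ferroportin (0.21), all higher. None of these was called in all 8 leave-one-out fits except *Nrg4*. Of 82 ribosomal proteins and 37 proteasome subunits 0 were called by edgeR or DESeq2, with 3 and 2 at an unadjusted p under 0.05.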

How the data were processed

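RNA from primary mouse hepatocytes was sequenced in 16 libraries, 4 each of untreated, itaconate-treated, lipid-treated and lipid + itaconate-treated cells, grouped by the sample labels. Before deposit, the authors trimmed the reads, aligned them with STAR 2.7.0f to mm10 and estimated expected counts per gene with RSEM 1.3.1 (versions per the submitters' processing notes, which also name bcl2fastq 2.20, cutadapt 1.18 and Picard 2.18.26). The library kit kept strand, and the strand setting of RSEM is not given in the sources used here, so antisense overlaps are uncertain. All 55450 identifiers matched GENCODE vM21. Expected counts, 5.41% of them not whole as deposited, were rounded. Totals ran from 22346049 to 35512004, and their number limits the precision of low genes.

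Genes averaging 1 CPM or more over the 16 libraries were tested with edgeR 4.0.16 in R 4.3.3 (TMM, quasi-likelihood test, treatment and replicate letter as terms, all 16 libraries) with Benjamini-Hochberg adjustment and a threshold of 0.05. CPM values use TMM library sizes, and differences within a letter are log2 CPM with a prior count of 0.5. The script was tested on simulated data. Letters were taken to pair the libraries. Deviations from the group means correlated at 0.144 to 0.469 in all 24 same-letter pairs (median 0.263). In 72 pairs of different letters the correlation was −0.436 to 0.178 (median −0.114). Deviations sum to 0 within a group, so positive same-letter values pull the others below 0. Named genes were the 14 largest rises and 14 largest falls at a mean of at least 5 CPM with 1 direction in all 4 letters and a call in the fit and in each of the 8 fits that left out 1 library, the 5 genes with the lowest interaction p, and up to 4 called members of each list with the largest change. Other genes are named to complete a count or as members of a list and were chosen after their values were seen. The comparison, the gene lists and the tests were chosen with earlier results of these data known. Alternatives were DESeq2 1.42.0, RLE normalization, other filters, no block for the letter, a fit of the 8 libraries alone and leaving out each library. Promoter sequences came from RefSeq on GRCm38.p6.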

Additional observations from a re-analysis of the deposited data

Results flagged for a closer look

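Of 138 groups of 4 libraries examined, 6 held a library whose gap to its nearest neighbour was too large a share of the range of the group by the Dixon criterion, and chance alone gives about 1 in 20 such groups. In lipid + itaconate-treated hepatocytes the highest library was letter A for *Gas2*, a cytoskeletal linker, at 76.3 CPM. It was letter B for *Pdk4* at 210.2 CPM, for *Dusp6*, a phosphatase of ERK, at 97 CPM and for *Gla*, lysosomal alpha-galactosidase, at 64.1 CPM. It was letter D for the clock gene *Per2* at 13.1 CPM, and in lipid-treated hepatocytes letter C for the hepatokine *Angptl6* at 11.6 CPM. The effect of itaconate on *Cxcl10* differed between lipid-loaded and lipid-free hepatocytes by an interaction test, by 0.47 on the log2 scale (adjusted p = 0.0299 in edgeR). The call was lost in 12 of 16 leave-one-out fits.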

How the results depend on the processing

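The 301 calls were 9 with no block for the replicate letter, which ignores the pairing, 14 in a fit of the 8 libraries alone, 725 with no filter on low counts and 509 in DESeq2. All 9 and all 14 were among the 301, as were 293 of the 509. RLE normalization gave 302 and filterByExpr 243. Single libraries left out gave 59 to 891 calls, and the cause of the high count without lipid + itaconate replicate C was not tested. The 54 calls of at least 1.5-fold were 2 with no block, 6 in the 8 libraries, 165 with no filter and 18 to 120 with single libraries left out. The 1 interaction call was 0 with no block, 2 with RLE or filterByExpr, 231 with no filter, 36 in DESeq2 and 0 to 8 with single libraries left out. Of the 69 named calls, 63 were lost with no block, 58 in the 8 libraries, 7 with filterByExpr, 1 with RLE, 1 with no filter and 0 in DESeq2. No named gene changed direction under these alternatives. Genes under 1 CPM were not tested, and small differences there were not detectable at this depth.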

Other observations

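The lists hold only a small part of the 11675 genes tested, and 239 of the 301 calls lay outside them. The genes given here were chosen after their values were seen. *Rin1*, a RAS effector that activates RAB5 and ABL kinases, was at 25.1, 19.2, 15.4 and 19.1 CPM with lipid and 8.94, 7.78, 11.7 and 11.9 CPM with lipid + itaconate, without overlap (log2 fold change −0.94 ± 0.17 standard error, adjusted p = 0.0122, and 0.0522 without lipid + itaconate replicate A). *Ankrd1*, a cardiac ankyrin-repeat protein and common target of YAP, had a log2 fold change of −1.15 (adjusted p = 0.0203) at 2.07 CPM or less. *Flnc*, filamin C (−0.87, adjusted p = 0.0428), *Myh9*, non-muscle myosin heavy chain (−0.24, adjusted p = 0.0439), and *Tln1*, talin (−0.19, adjusted p = 0.0448), were each called in at most 2 of the 8 leave-one-out fits.

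*Oaz2*, antizyme 2, had a log2 fold change of 0.24 (adjusted p = 0.0109), *Amd1*, which makes the aminopropyl donor, 0.25 (adjusted p = 0.0214), and *Sat1*, which acetylates polyamines for export, 0.28 (adjusted p = 0.0291). *Sat1* rose by more in letters A and B, to 344 and 360 CPM, than in C and D, at 269 and 276 CPM. *Il1r1*, the signalling receptor of interleukin 1, was at 30.5 to 40.2 CPM with lipid and 42.3 to 58.4 CPM with lipid + itaconate (log2 fold change 0.52, adjusted p = 0.0122), with an adjusted p of 0.0648 without lipid + itaconate replicate A and 0.0501 without lipid replicate D. *Sucnr1*, the receptor for succinate, was at 1.2, 0.451, 0.446 and 0.540 CPM with lipid and 2.7, 2.31, 0.542 and 0.824 CPM with lipid + itaconate. Its log2 fold change of 1.22 (adjusted p = 0.0342) was called in 2 of the 8 leave-one-out fits, and its rise was largest in letters A and B. *Mfn2*, which fuses mitochondria, was at 52.9 to 59.3 CPM with lipid and 43.3 to 47.7 CPM with lipid + itaconate, without overlap (log2 fold change −0.27, adjusted p = 0.00975).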
